A study of Homo sapiens with 60 samples.

Results

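Clones C6 and G6 are 2 of the 3 TDP1 knockout clones of HEK293A, a human embryonic kidney cell line, whose RNA was sequenced in this study. The libraries compared here are the 16 made without drug, 8 of C6 and 8 of G6, out of 60 in the series. They were chosen by their labelled clone and treatment alone: in each clone 4 libraries came from untreated cells and 4 from cells given the vehicle, 0.1% DMSO, for 5 to 5.5 hours. Both clones carry the TDP1 knockout, made with CRISPR/Cas9 and guides against constitutive coding exons, and both grew in medium with 10% fetal bovine serum. The labels call the replicates of a group biological and number them 1 to 4. They do not say whether an untreated and a DMSO library of the same number came from 1 culture. Each knockout line is 1 clone, so the replicate spread measures cultures of that clone, and the knockout, the founder cell and later drift cannot be told apart in a difference between C6 and G6. Libraries of clone F7 without drug (8) are given beside them where they help, and the parental line was not analysed here. A further 24 libraries of C6 and G6 are used for comparison. Their cells had received 100 nM topotecan, 5 µM OL9-119 or both for 5 to 5.5 hours.

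TDP1 encodes an enzyme that removes the remnant of topoisomerase 1, encoded by TOP1, when that protein is trapped on DNA. HEK293 cells came from embryonic kidney tissue, carry an abnormal set of chromosomes, and are known to express neuronal and adrenal genes beside renal ones. Cells of such a line differ in chromosome copy number and in which promoters are silent. A clone founded by 1 cell starts from the state of that cell.

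Library totals ran from 5.26 to 17.0 Mcounts (megacounts, with the prefix of megabase) in C6 and from 6.86 to 18.8 Mcounts in G6, so that a gene at 1 CPM (1 count in each Mcount of the scaled library total) held about 5 to 19 counts in a library. When every library was thinned to 4.5 Mcounts, 3 C6 libraries (DMSO replicates 1 and 2, untreated replicate 2) and 2 G6 libraries (DMSO replicate 1, untreated replicate 1) showed fewer than 20000 detected genes. Results were therefore also computed without these 5. The counts of replicates differed by 2.82 to 48.9 times the variance of counting error over 24 pairs, so no library repeated another. All 12 markers of the HEK293 lineage passed the filter on low counts, with a summed level of 1790 to 2480 CPM in C6 and 1800 to 2210 CPM in G6. Of 16 blood cell, 10 fibroblast and 12 hepatocyte markers, 5, 4 and 1 passed. The blood cell markers summed to 10.0 to 20.7 CPM in C6 and 16.2 to 28.9 CPM in G6, the fibroblast markers to 31.1 to 45.2 and 18.5 to 46.1 CPM, and the hepatocyte markers to at most 2.11 and 3.88 CPM.

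TDP1 (ENSG00000042088, chromosome 14, 89954939 to 90044768 in GENCODE 29) stood at 32.6 to 40.3 CPM in the 8 C6 libraries (median 34.8) and at 26 to 39 CPM in the 8 G6 libraries (median 31.3). The groups overlapped, and the log2 difference of C6 minus G6 was 0.18 ± 0.09 (SE here and below, adjusted p = 0.121, edgeR). Transcript from the targeted gene was thus present in both clones, and the table holds no count per exon. TOP1 (chromosome 20, 41028818 to 41124487) stood at 246 to 344 CPM in C6 (median 286) and at 375 to 545 CPM in G6 (median 503), with no overlap. Its difference was -0.77 ± 0.08 (adjusted p = 5.13e-07, edgeR), and F7 lay at 391 to 502 CPM (median 434). In the drug-treated libraries of C6 and G6 the TDP1 difference was 0.27 ± 0.08 (adjusted p = 0.00966, edgeR) and that of TOP1 -0.73 ± 0.08 (adjusted p = 3.36e-08, edgeR).

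The 2 knockout clones differed at a large share of their expressed genes. Of 16493 genes tested, 2688 (16.3%) were higher and 2815 (17.1%) lower in C6 at an adjusted p under 0.05, together 33.4% (edgeR quasi-likelihood F test with Benjamini-Hochberg adjustment over all genes, vehicle as a factor). At least 2-fold differences passed at 1111 genes (6.74%), 311 higher (1.89%) and 800 lower (4.85%). All 8 C6 libraries stood above all 8 G6 libraries at 811 genes (4.92%) and below them at 883 (5.35%). These shares are the background for every count below. The test takes the 16 libraries as independent, although untreated and DMSO libraries of 1 number and clone correlated at up to 0.81 in their deviations. With the untreated and DMSO counts of each replicate summed, which leaves 4 libraries against 4, 1768 genes were higher and 2040 lower. Libraries bore the prefixes L01, L02 and L03 in their names, whose meaning the labels do not give. Of the 5503 genes 99.3% had 1 direction within all 3 prefixes. They were called on these same libraries, so this share is no separate check.

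**Figure D1:**
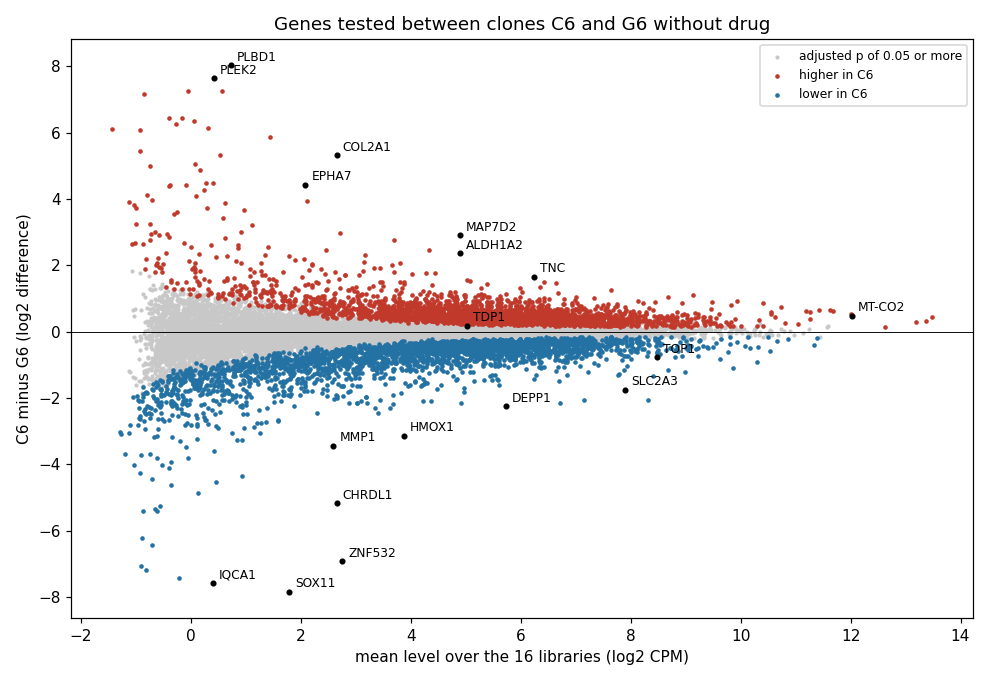
Each point is 1 of 16493 genes, placed by its mean level over the 16 libraries (x axis, log2 CPM) and the C6 minus G6 difference (y axis, log2), with genes past an adjusted p of 0.05 in colour. SOX11 (-7.83) lies near the bottom, PLBD1 (8.03) near the top, COL2A1 (5.32) and ZNF532 (-6.92) further out than most genes of their level, and TDP1 (0.18) near 0.

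Most of the called genes differed in the same direction in other libraries of the same clones. No gene passed for a clone by vehicle interaction with edgeR (241 at an unadjusted p under 0.05) or with DESeq2 (482 at an unadjusted p under 0.05). The gene with the smallest interaction p, SOWAHA, had a log2 interaction of 1.32 ± 0.35 (unadjusted p = 0.00119, edgeR). The 24 libraries of C6 and G6 that had received topotecan, OL9-119 or both share no library with the 16 without drug. Among them 4101 genes (23.5%) were higher and 3911 (22.4%) lower in C6. Of the 5495 genes called without drug and tested in both sets, 4860 (88.4%) were called in the same direction with drug, which is 62.2% of the 7816 called there. The only gene called in opposite directions, HESX1, named after its values were seen, was higher in C6 without drug (1.29 ± 0.46, adjusted p = 0.0350, edgeR) and lower with drug (-0.77 ± 0.30, adjusted p = 0.0354, edgeR). Its call without drug was lost with summed counts (1.26), without the 5 libraries of low detection (0.60) and without any 1 of 8 single libraries (0.98 to 1.33), among them C6 DMSO replicate 1 and G6 DMSO replicate 1.

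Genes of whole chromosomes stood lower or higher together in C6. On chromosome 20, 271 of 430 tested genes (63.0%) were lower and 9 higher, with a median difference of -0.55, and on chromosome 11, 577 of 930 (62.0%) were lower and 7 higher, with a median of -0.51. Chromosome 11 held 5.64% of the genes tested and 20.5% of all genes lower in C6. In the other direction, 357 of 812 genes on chromosome 7 (44%) and 74 of 159 on chromosome 21 (46.5%) were higher, with medians of 0.35 and 0.39. The median over all genes was 0. Library by library, the median level of chromosome 11 genes, relative to the mean of the 3 clones, lay between -0.42 and -0.22 in C6, 0.14 and 0.27 in G6, and 0.09 and 0.17 in F7. For chromosome 20 the 3 ranges were -0.44 to -0.27, 0.13 to 0.27 and 0.15 to 0.20. C6 therefore stood apart from both other clones at these chromosomes, as it did at chromosome 7 (0.20 to 0.26 in C6, at most -0.11 in G6 and -0.02 in F7).

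**Figure D2:**
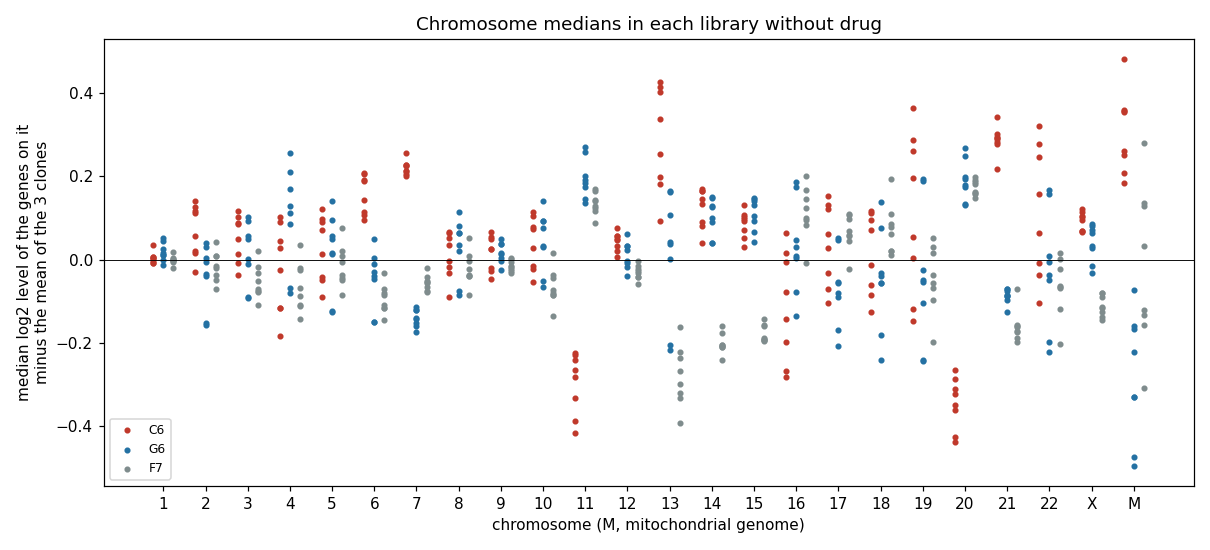
Points are libraries without drug (8 per clone, C6 red, G6 blue, F7 grey), placed by the median log2 level of the genes on each chromosome (x axis) after subtracting the mean of the 3 clones from each gene (y axis, log2 of CPM plus 0.5). At chromosomes 11 and 20 all 8 C6 points lie at or below -0.22, and all G6 and F7 points at or above 0.09.

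Not every gene of these chromosomes followed the median. Of the 4 most expressed genes of chromosome 20, RBM39, a splicing factor, was lower in C6 (-0.73 ± 0.06, adjusted p = 7.88e-09, edgeR), while GNAS (-0.02 ± 0.05), YWHAB (0.10 ± 0.06) and CSE1L (0.16 ± 0.09) did not pass. On chromosome 11 the ribosomal protein gene RPS3 (-0.58 ± 0.11), the lactate dehydrogenase gene LDHA (-0.92 ± 0.09) and the chaperone gene HSPA8 (-0.31 ± 0.06) were lower. EIF4G2 there was lower by a smaller amount (-0.22 ± 0.08, adjusted p = 0.0278, edgeR) and lost the call when untreated and DMSO counts were summed. In windows of 20 Mb the differences were uneven within chromosomes. The lowest of 154 windows was chromosome 20 from 0 to 20 Mb, with a median of -0.70, 78 genes lower and 3 higher. It holds NOP56, a nucleolar protein gene at 235 to 323 CPM in C6 and 597 to 642 CPM in G6 (-1.14 ± 0.06), PCNA, the replication clamp (-0.66 ± 0.07), CSNK2A1, a casein kinase 2 subunit (-0.83 ± 0.07), and DSTN, which did not pass (0.10 ± 0.10). On chromosome 18 the window from 20 to 40 Mb had a median of 0.59 with 39 of 62 genes higher, and the window from 60 to 80 Mb a median of -0.68 with 30 of 35 genes lower. KDSR, which encodes an enzyme of sphingolipid synthesis, lies in the latter (-0.73 ± 0.09). TMX3 (-0.37 ± 0.14), VPS4B (-0.34 ± 0.11) and CNDP2 (-0.30 ± 0.10) of that window passed too, and each lost the call with untreated and DMSO counts summed. At the end of chromosome 11, from 120 to 140 Mb, the median was -0.67 with 55 of 74 genes lower, among them APLP2 (-0.76 ± 0.05) and EI24 (-0.66 ± 0.06). The part of copy number in these medians was not tested, since the series has no DNA data. For lists with several of their lower genes on chromosomes 11 and 20, the count on the other chromosomes is given too. There, 17.7% of 15133 genes were higher and 13% lower in C6. The lists were not counted without chromosomes 7 and 21, so the part of these chromosomes in the higher counts was not tested.

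Among genes with a mean of at least 2 on the log2 CPM scale, the 15 with the largest differences upward ran from COL2A1 (5.32) to LGR5 (2.00). COL2A1 (ENSG00000139219, chromosome 12, 47972965 to 48004554), which encodes the collagen of cartilage, stood at 27.5 to 51.6 CPM in C6 (median 40.4) and at 0.313 to 1.45 CPM in G6 (median 1.09). The difference was 5.32 ± 0.21 (adjusted p = 9.70e-14, edgeR), and F7 lay at 1.48 to 7.69 CPM. EPHA7, an ephrin receptor of axon guidance on chromosome 6, stood at 13.1 to 24.9 CPM in C6 and 0.457 to 1.55 CPM in G6 (4.42 ± 0.20). ALDH1A2, which makes retinoic acid, stood at 63.2 to 84.0 CPM in C6 (median 68.3) and 11.4 to 20.9 CPM in G6 (median 12.4), a difference of 2.36 ± 0.12. The galectin gene LGALS8 differed by 3.93 ± 0.29 and the DNA mismatch repair gene MLH3 by 2.45 ± 0.25. TENM1, a teneurin of neuronal wiring, differed by 2.46 ± 0.15, and LGR5, a receptor that amplifies Wnt signals, by 2.00 ± 0.18. The other 8 were ZNF257 (2.98), MAP7D2 (2.90), ARMCX2 (2.75), ADGRL3 (2.32), TMEM132B (2.20), CADPS2 (2.09), ADAMTS16 (2.07) and ZMAT1 (2.04). At all 15 every C6 library stood above every G6 library.

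At the same limit on the mean level, the 15 genes with the largest differences downward ran from ZNF532 (-6.92) to LINC02709 (-2.14). Genes of lower mean level that differed by more, such as SOX11, are described further on. ZNF532 (ENSG00000074657, chromosome 18, 58862600 to 58986480), a zinc finger gene, stood at 0 to 1.64 CPM in C6 (median 0.516) and at 66.2 to 87.7 CPM in G6 (median 69.2). The difference was -6.92 ± 0.22 (adjusted p = 4.67e-15, edgeR), and F7 lay between them at 23.8 to 36.5 CPM. CHRDL1, which encodes a secreted antagonist of bone morphogenetic proteins (BMPs), stood at 0.509 to 1.75 CPM in C6 and 29.1 to 47.5 CPM in G6 (-5.17 ± 0.17). The collagenase gene MMP1 (-3.43 ± 0.20) and the stromelysin gene MMP10 (-2.15 ± 0.09), both on chromosome 11, encode secreted proteases. HMOX1, the inducible heme oxygenase, stood at 3.50 to 7.48 CPM in C6 (median 5.09) and 27.7 to 73.3 CPM in G6 (median 49.8), a difference of -3.13 ± 0.17. The neurofilament genes NEFM (-2.15 ± 0.15) and NEFH (-2.15 ± 0.27) belonged to this group as well. The other 8 were RNF180 (-2.46), LINC03061 (-2.46), RHEBL1 (-2.31), DEPP1 (-2.25), UBE2L6 (-2.19), RAB3IL1 (-2.16), MOSPD1 (-2.16) and LINC02709 (-2.14). UBE2L6, RAB3IL1 and LINC02709 lie on chromosome 11 as well. At all 15 every C6 library stood below every G6 library. In bulk RNA, less transcript in every cell and fewer cells with the transcript cannot be told apart.

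Many immediate early genes were lower in C6. Of 30 tested immediate early and AP-1 genes, which are switched on within minutes of a signal and encode transcription factors and their feedback phosphatases, 18 were lower (60%, against 17.1% of all genes) and 1 higher, with a list median of -0.40 against 0 over all genes. DUSP1, a phosphatase that ends MAP kinase signals, stood at 56.3 to 81.3 CPM in C6 (median 71.5) and up to 182 CPM in G6 (median 158), without overlap, a difference of -1.19 ± 0.09 (adjusted p = 6.33e-09, edgeR). DUSP5 (-1.19 ± 0.10), the AP-1 subunit FOSL1 (-1.37 ± 0.15) and MAFF (-1.39 ± 0.15) did not overlap between the clones either. EGR1 was the 1 member that was higher, at 34.4 to 79.0 CPM in C6 and 23.3 to 41.1 CPM in G6, with overlap (0.80 ± 0.15, adjusted p = 0.000304, edgeR). Outside chromosomes 11 and 20 the count was 17 of 29, and without the 5 libraries of low detection 17 of the 30 were lower.

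Among genes of inflammatory signalling more were lower than higher. Of 21 tested NF-kB targets and chemokines 10 were lower and 2 higher (median -0.52), and 8 of 19 were lower on the other chromosomes. ICAM1, an adhesion receptor for leukocytes, stood at 1.02 to 4.73 CPM in C6 and 5.53 to 16.2 CPM in G6 (-1.84 ± 0.22, adjusted p = 1.71e-06, edgeR). TNFAIP3, the feedback inhibitor of NF-kB, differed by -0.79 ± 0.11, the chemokine gene CXCL8 by -1.19 ± 0.19 and IL11 by -1.47 ± 0.24, the last 2 with overlap. The chemokine genes CCL20 (1.58 ± 0.27) and CCL2 (0.87 ± 0.24) were higher in C6. Of 27 interferon-stimulated genes 19 did not pass and 7 were lower (5 of 23 on the other chromosomes), among them OAS3 (-0.94 ± 0.09), IRF7 (-1.10 ± 0.22, chromosome 11) and the RNA sensor IFIH1 (-0.65 ± 0.16), and IFI27 was higher (0.81 ± 0.17). MYD88, the adaptor of Toll-like receptors, was named after its values were seen. It held 1608 counts over the C6 libraries and 32 over the G6 libraries (5.88 ± 0.35, adjusted p = 8.68e-11, edgeR).

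Genes of hypoxia and of the ATF4 stress response were lower more often than higher, and 11 and 13 of them did not pass. Of 29 tested genes of glycolysis and hypoxia, 15 were lower and 3 higher in C6 (median -0.34), and 13 of 27 were lower on the other chromosomes. SLC2A3, a glucose transporter, stood at 108 to 168 CPM in C6 (median 137) and 311 to 650 CPM in G6 (median 426), a difference of -1.75 ± 0.10 (adjusted p = 1.02e-10, edgeR). ADM, which encodes the hypoxia-induced peptide adrenomedullin, differed by -1.62 ± 0.12, ENO2 by -1.07 ± 0.12 and NDRG1, with overlap, by -1.28 ± 0.14. LDHA stood at 780 to 1070 CPM in C6 and 1530 to 2640 CPM in G6. The 3 higher members were the glycolytic genes PFKL on chromosome 21 (0.65 ± 0.15), GPI (0.54 ± 0.12) and LDHB (0.18 ± 0.05). LDHB lost the call with no filter on low counts. Of 28 tested ATF4 targets and genes of amino acid synthesis, 12 were lower and 3 higher (median -0.28), and 9 of 25 were lower on the other chromosomes. DDIT3, the transcription factor CHOP, stood at 11.7 to 23 CPM in C6 and 35.9 to 54.4 CPM in G6 (-1.33 ± 0.13, adjusted p = 9.58e-08, edgeR). The pseudokinase gene TRIB3 on chromosome 20 differed by -1.32 ± 0.11, STC2 by -0.80 ± 0.09 and GDF15, with overlap, by -1.62 ± 0.18.

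The antioxidant genes were divided. Of 31 tested NRF2 targets and glutathione genes 9 were lower and 7 higher (median -0.05), and with summed counts 6 were lower and 4 higher. Beside HMOX1, the glutathione transferase gene GSTM4 stood at 0 to 3.89 CPM in C6 and 6.27 to 11.1 CPM in G6 (-2.70 ± 0.37). GPX3 (-0.91 ± 0.11) and the thioredoxin reductase gene TXNRD1 (-0.40 ± 0.06) were lower, while AKR1B1 on chromosome 7 (0.62 ± 0.08) and GSTO1 (0.33 ± 0.06) were higher. Of 24 heat shock and chaperone genes 10 were higher and 4 lower. HSPB1, a small heat shock protein gene on chromosome 7 (0.81 ± 0.12), and DNAJA1 (0.60 ± 0.07) were higher, and HSPA5, the chaperone of the endoplasmic reticulum, was lower (-0.46 ± 0.06). In sterol and fatty acid synthesis 5 of 27 genes were higher, with HMGCS1 (0.84 ± 0.11) and ACLY (0.64 ± 0.06), and 7 lower, with FADS1 on chromosome 11 (-0.72 ± 0.06). On the other chromosomes 4 of 23 were lower, and with summed counts 4 of the 27.

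**Figure D3:**
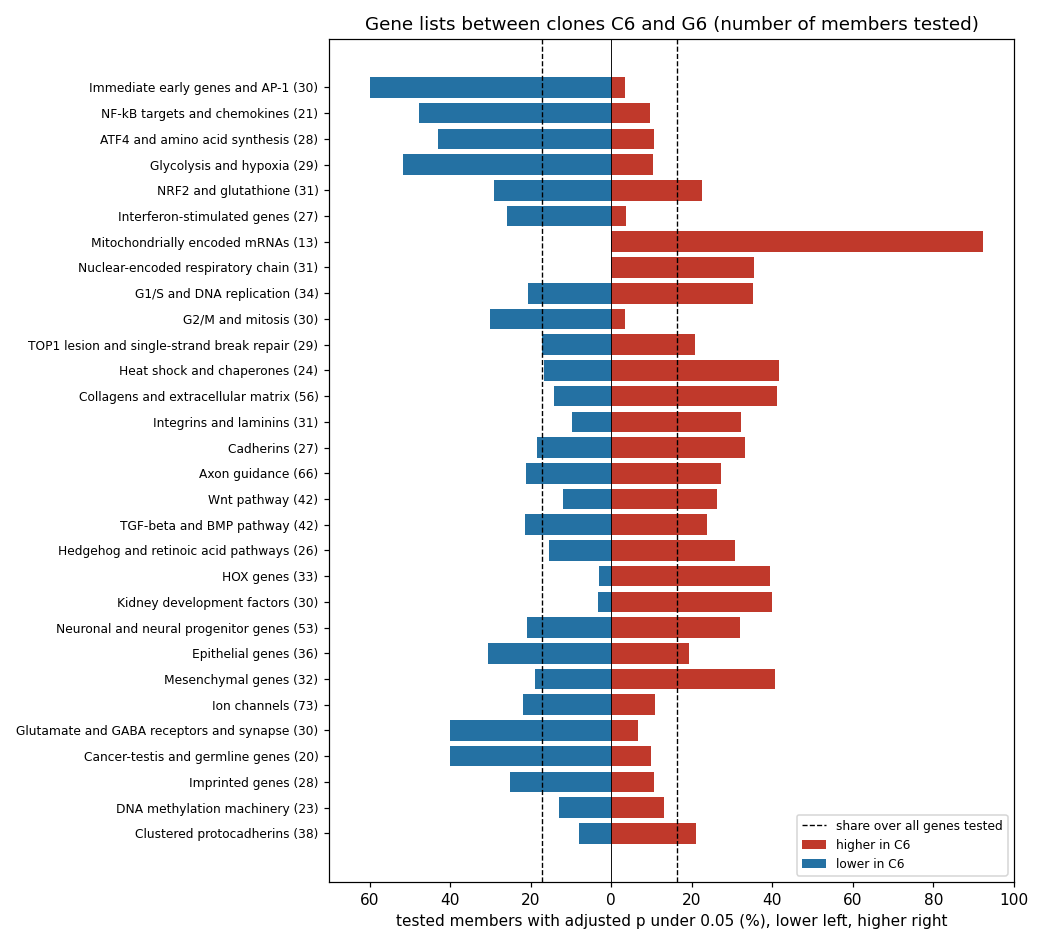
Bars give the share of each list's tested members (number in brackets) that were higher (red, right) or lower (blue, left) in C6 at an adjusted p under 0.05, and dashed lines the shares over all genes, 16.3% and 17.1%. Mitochondrially encoded mRNAs reach 92.3% higher, and immediate early genes 60% lower.

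Transcripts of the mitochondrial genome were higher in C6. Of its 13 mRNAs 12 were higher and none lower, with a list median of 0.63. MT-ND4, a subunit of complex I, stood at 3600 to 4690 CPM in C6 (median 4310) and 2400 to 3270 CPM in G6 (median 2730), without overlap (0.63 ± 0.06, adjusted p = 1.94e-07, edgeR). MT-ATP6 (0.64 ± 0.06), MT-CYB (0.64 ± 0.07), MT-CO3 (0.54 ± 0.06), MT-CO2 (0.48 ± 0.05) and MT-CO1 (0.33 ± 0.06) were likewise apart, and the ribosomal RNA MT-RNR2 differed by 0.44 ± 0.09. The 1 mRNA that did not pass, MT-ND6, is encoded on the other strand and stood at 366 to 699 CPM in C6 and 287 to 621 CPM in G6 (0.11 ± 0.16). Counts of the mitochondrial genome made up 5.24 to 6.64% of each C6 library and 3.76 to 4.82% of each G6 library. In F7 the share was 4.35 to 6.07%, which overlapped both. Of 31 nuclear-encoded subunits of the respiratory chain 11 were higher and none lower (median 0.14), with NDUFA4 on chromosome 7 the most apart at 129 to 157 CPM against 80.1 to 95.4 CPM (0.68 ± 0.07). COX7A2 (0.34 ± 0.06) and ATP5F1A (0.32 ± 0.06) also passed. With summed counts 7 of the 31 were higher, and in the DMSO libraries alone 1.

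Of 34 tested G1/S and replication genes 12 were higher and 7 lower, and outside chromosomes 11 and 20 the split was 12 and 2 of 28. MCM3, part of the replicative helicase (0.36 ± 0.06), its partner CDC45 (0.54 ± 0.10) and CDK6 on chromosome 7 (0.61 ± 0.13) were higher. E2F1 (-0.87 ± 0.16) and PCNA on chromosome 20 and RRM1 on chromosome 11 (-0.42 ± 0.07) were lower. Of 30 G2/M and mitosis genes 9 were lower, 3 of 3 on chromosome 20 and 6 of 27 on chromosomes other than 11 and 20. These 3, the mitotic kinase AURKA (-0.70 ± 0.06), its activator TPX2 (-0.56 ± 0.07) and the ubiquitin-conjugating enzyme gene UBE2C (-0.61 ± 0.09), passed along with CDC25C (-0.56 ± 0.10) on chromosome 5. PLK1 was the 1 member that was higher (0.33 ± 0.10, adjusted p = 0.0106, edgeR), and it lost the call with summed counts, where 5 of the 30 were lower.

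Among 29 genes that act on TOP1 lesions and single-strand breaks 6 were higher and 5 lower, and 4 of the 5 lie on chromosomes 11 and 20. The lower ones were TOP1 itself, the nuclease genes MUS81 (-0.66 ± 0.15), FEN1 (-0.40 ± 0.06) and MRE11 (-0.33 ± 0.11) on chromosome 11, and EME1 on chromosome 17 (-0.51 ± 0.13). MRE11 lost the call with summed counts. RBBP8, which starts end resection, lies in the chromosome 18 window from 20 to 40 Mb, whose median was 0.59. It stood at 64.0 to 107 CPM in C6 and 38 to 60.7 CPM in G6 (0.78 ± 0.12, adjusted p = 6.00e-05, edgeR). LIG3, the ligase of single-strand break repair, differed by 0.45 ± 0.08. With summed counts 3 of the 29 were higher and 4 lower. Among 19 genes tied to camptothecin response and drug efflux 3 were higher and 4 lower. ABCB1, the drug efflux pump on chromosome 7, stood at 39.9 to 50.6 CPM in C6 and 16.9 to 24.1 CPM in G6 (1.09 ± 0.10, adjusted p = 5.46e-08, edgeR). SLFN11, whose product blocks stalled replication, was higher (0.45 ± 0.08), and the checkpoint kinase gene CHEK1 on chromosome 11 was lower (-0.81 ± 0.10). Of 30 p53 targets 5 were higher and 6 lower, and with summed counts 2 and 5. Of 33 tested cytosolic ribosomal protein genes, 7 were higher and 4 lower, and with summed counts 4 and 1. Among them the paralog RPL22L1 stood furthest apart at 49.7 to 81.8 CPM in C6 and 18.8 to 29.2 CPM in G6 (1.32 ± 0.12).

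Extracellular matrix genes were higher in C6 more often than lower. Of 56 tested collagens and matrix genes 23 were higher (41.1%) and 8 lower, 10 and 2 of them at least 2-fold. TNC, a matrix glycoprotein of embryonic tissue, stood at 111 to 159 CPM in C6 (median 142) and 36.3 to 50.2 CPM in G6 (median 44.6), a difference of 1.66 ± 0.09. COL12A1 had a median of 155 CPM in C6 and stood at 44.8 to 66.1 CPM in G6, without overlap (1.49 ± 0.07, adjusted p = 3.16e-12, edgeR). COL3A1 stood at 5.12 to 10.2 CPM and 0 to 2.80 CPM (2.15 ± 0.33). The protease inhibitor gene TIMP3 differed by 0.99 ± 0.07 and LUM, with overlap, by 1.56 ± 0.34. COL3A1 and LUM are also 2 of the 4 tested fibroblast markers. The lower members included COL27A1 (-0.86 ± 0.19) and the collagen cross-linking enzyme gene LOXL2 (-0.76 ± 0.13). Of 31 integrin and laminin genes 10 were higher and 3 lower, with LAMA4 (0.89 ± 0.10) and ITGB8 on chromosome 7 (1.08 ± 0.18) among the higher. With summed counts 6 of the 31 were higher.

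Cadherins and guidance receptors moved both ways. Of 27 cadherins 9 were higher and 5 lower. The latter count was 3 with summed counts and 2 without G6 DMSO replicate 4, G6 untreated replicate 3 or G6 untreated replicate 4, and 3 without any 1 of C6 DMSO replicates 2 and 4, C6 untreated replicates 1 and 3, and G6 untreated replicate 2. CDH8 stood at 3.50 to 4.86 CPM in C6 and 0.0783 to 1.36 CPM in G6 (2.60 ± 0.34), the atypical cadherin gene FAT4 at 21.2 to 31.3 CPM and 6.45 to 15.5 CPM (1.43 ± 0.15). CDH2, neural cadherin, in the chromosome 18 window from 20 to 40 Mb (0.68 ± 0.09), and CDH1, epithelial cadherin (1.89 ± 0.28), were both higher in C6. CDH1 stood at a median of 13 CPM in F7, above C6 and G6. Of 66 axon guidance genes 18 were higher and 14 lower, 8 and 3 at least 2-fold. NRP1, a semaphorin receptor, stood at no less than 90.4 CPM in C6 and at 34 to 48.6 CPM in G6 (1.31 ± 0.08, adjusted p = 5.46e-11, edgeR). SEMA3D, on chromosome 7, differed by 2.29 ± 0.31 and ROBO3, on chromosome 11 and with overlap, by -1.43 ± 0.27. With summed counts 14 of the 66 were higher and 6 lower.

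In the Wnt pathway 11 of 42 tested genes were higher in C6 and 5 lower, and with summed counts 7 and 3. Without the 5 libraries of low detection 11 were higher and 9 lower. Receptors, ligands and secreted antagonists stood on both sides. FZD10, a Wnt receptor, stood at 8.37 to 17.2 CPM in C6 and 2.55 to 5.24 CPM in G6 (1.72 ± 0.17, adjusted p = 1.25e-07, edgeR). The ligand gene WNT5A differed by 1.27 ± 0.17. DKK1, a secreted Wnt antagonist, stood at 6.72 to 11.7 CPM in C6 and 23.7 to 32.5 CPM in G6 (-1.65 ± 0.13, adjusted p = 7.54e-09, edgeR). In the TGF-beta and BMP pathways 10 of 42 genes were higher and 9 lower, and outside chromosomes 11 and 20 the split was 10 and 6 of 39. The ligand gene BMP2, on chromosome 20, stood at 16.2 to 20 CPM in C6, 50.7 to 72.6 CPM in G6 and a median of 157 CPM in F7 (C6 minus G6 -1.71 ± 0.09). The BMP target ID1 on the same chromosome was lower (-1.13 ± 0.16), while ID2 (0.98 ± 0.07) and LTBP1, which holds latent TGF-beta in the matrix (1.13 ± 0.09), were higher.

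Of 26 Hedgehog and retinoic acid genes 8 were higher and 4 lower. Beside ALDH1A2, the Hedgehog receptor and target PTCH1 (0.89 ± 0.09) and the Hedgehog effector GLI3 on chromosome 7 (0.69 ± 0.09) were higher. With summed counts 8 were higher and 2 lower, and without G6 DMSO replicate 2 the lower count was 2 as well. Of 49 receptor tyrosine kinases and ligands 12 were higher and 10 lower. KIT, the stem cell factor receptor, stood at 5.05 to 11 CPM in C6 and 19.5 to 28.8 CPM in G6 (-1.90 ± 0.14, adjusted p = 3.47e-09, edgeR). AXL (-2.09 ± 0.17) and the neuregulin gene NRG2 (-2.11 ± 0.32) were lower. MET on chromosome 7, the hepatocyte growth factor receptor (0.94 ± 0.11), and the ligand gene FGF9 (1.72 ± 0.16) were higher.

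HOX genes set position along the body axis. Of 33 tested 13 were higher and 1 lower in C6, with a median of 0.32, and 19 did not pass. HOXA4 stood at 3.14 to 6.77 CPM in C6 and 0.851 to 2.11 CPM in G6 (1.71 ± 0.24, adjusted p = 1.23e-05, edgeR). HOXA5 (0.67 ± 0.12) did not overlap between the clones, and HOXC4 did (0.66 ± 0.12). The HOXA cluster lies on chromosome 7, and HOXC4 on chromosome 12. The 1 lower gene, HOXD9 (-0.49 ± 0.17, adjusted p = 0.0335, edgeR), lost the call with summed counts. Of 30 tested kidney development factors 12 were higher and 1 lower (median 0.16). SIX2, which maintains nephron progenitors, stood at 4.10 to 12.2 CPM in C6 (median 8.93) and 1.42 to 4.34 CPM in G6 (median 3.06), with overlap at 1 value (1.47 ± 0.22, adjusted p = 3.50e-05, edgeR). MEIS1 (0.70 ± 0.11) and FOXC1 (0.66 ± 0.07) were higher without overlap. CITED1 was the lower member (-0.79 ± 0.23, adjusted p = 0.0113, edgeR), and it lost the call with summed counts. Among 14 tested products of kidney tubules and podocytes 4 were higher and 3 lower. The higher count was 2 with summed counts and also without any 1 of C6 DMSO replicate 4, C6 untreated replicates 1 and 2, and G6 untreated replicates 2, 3 and 4. The water channel genes AQP1 (-1.01 ± 0.15) and AQP3 (-1.09 ± 0.16) and the peptidase gene DPP4 (-1.02 ± 0.24) were lower, and KL, the klotho gene, was higher at levels of at most 3.31 CPM in C6 and 0.609 CPM in G6 (2.95 ± 0.68).

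Neuronal genes included the largest difference among the lists. SOX11 (ENSG00000176887, chromosome 2, 5692667 to 5701385), a transcription factor of neural progenitors, stood at 0 to 0.322 CPM in C6 (median 0.178) and 27.4 to 45.2 CPM in G6 (median 41.5). F7 had a median of 38.2 CPM. The difference was -7.83 ± 0.24 (adjusted p = 4.67e-15, edgeR), from 13 counts over the C6 libraries against 3641 over the G6 libraries. The neuronal RNA-binding protein gene ELAVL3 stood at 1.56 to 5.17 CPM in C6 and 11 to 15.1 CPM in G6 (-1.99 ± 0.20). Among the neuronal intermediate filament genes NEFM was lower, at 2.50 to 4.75 CPM against 11 to 18.6 CPM. So were NEFH, at 1.17 to 7.91 CPM against 16.8 to 23.6 CPM, and INA, at 0 to 0.615 CPM against 2.04 to 4.93 CPM (-3.22 ± 0.41). NEFL, of the same family, was tested and was not called lower. Other neural transcription factors were higher in C6. POU3F2 stood at 6.23 to 11.9 CPM in C6 and 0.905 to 5.36 CPM in G6 (1.87 ± 0.25, adjusted p = 7.08e-06, edgeR), SOX4 at 251 to 330 CPM and 146 to 199 CPM (0.77 ± 0.06), and SOX2 differed by 0.52 ± 0.08. The adhesion gene NRCAM on chromosome 7 was higher with overlap (0.84 ± 0.13). In all, 17 of 53 tested neuronal and progenitor genes were higher and 11 lower, 4 and 9 of them at least 2-fold. Of 17 adrenal and neural crest genes 4 were higher and 3 lower. SLC18A2, the vesicular monoamine transporter, held 12 counts over the C6 libraries and 406 over the G6 libraries (-4.87 ± 0.43), and CYP11A1, the first enzyme of steroid synthesis, 407 and 44 (3.44 ± 0.43). With summed counts 2 of the 17 were higher and 3 lower, and 2 were higher without any 1 of C6 DMSO replicate 3, G6 DMSO replicates 2 and 3, and G6 untreated replicate 2.

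**Figure D4:**
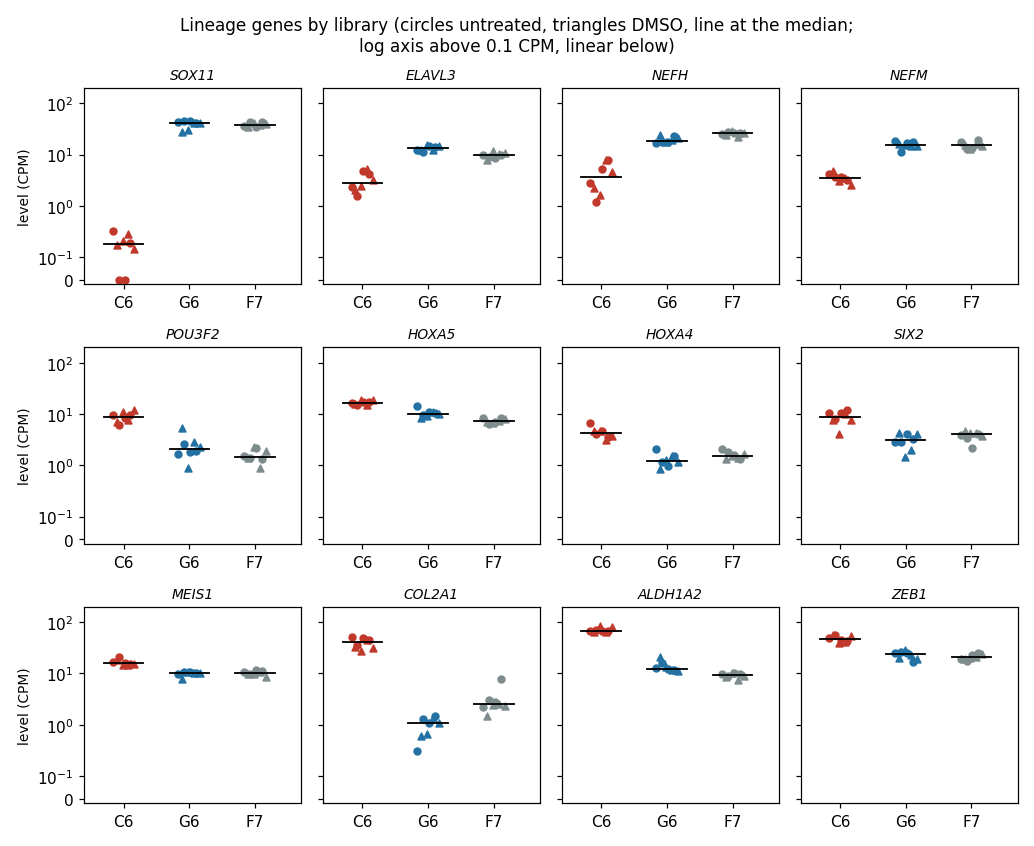
Points are the CPM of 12 lineage and matrix genes in each library without drug (C6 red, G6 blue, F7 grey), with circles for untreated and triangles for DMSO libraries and a line at the median of 8. The axis is logarithmic above 0.1 CPM and linear below. SOX11 is at most 0.322 CPM in C6 and at least 27.4 CPM in G6, while POU3F2, HOXA4 and COL2A1 are higher in C6.

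Epithelial and mesenchymal genes did not fall into 1 direction each. Of 36 epithelial genes 7 were higher and 11 lower, and of 32 mesenchymal genes 13 were higher and 6 lower. ESRP1, a splicing regulator of epithelia, stood at 0.170 to 1.79 CPM in C6 and 2.79 to 5.56 CPM in G6 (-2.22 ± 0.32, adjusted p = 1.55e-05, edgeR). ELF3 (-1.81 ± 0.22), the claudin gene CLDN4 (-1.52 ± 0.18) and the plakophilin gene PKP3 on chromosome 11 (-1.50 ± 0.18) were lower. In the other direction CDH1, epithelial cadherin, was higher without overlap (1.89) and KRT19 with overlap (0.95 ± 0.14), and DSP and MARVELD2 were higher as well. Outside chromosomes 11 and 20 the epithelial split was 7 higher and 9 lower of 33. On the mesenchymal side the repressor gene ZEB1 stood at 39.5 to 57.0 CPM in C6 and 16.8 to 28.4 CPM in G6 (1.06 ± 0.12, adjusted p = 6.33e-07, edgeR). VIM (0.41 ± 0.06) was higher, as were TWIST1 (0.77 ± 0.14) and CAV1 (0.80 ± 0.09), both on chromosome 7. SNAI1 (-1.41 ± 0.11) and MYL9 (-1.15 ± 0.14), both on chromosome 20, were lower. AXL (-2.09) and ANXA1, on other chromosomes, were lower too. Outside chromosomes 11 and 20 the mesenchymal split was 13 higher and 3 lower of 28.

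Receptor and synapse genes of excitable cells were lower more often than higher, while ion channel genes lay nearer the shares over all genes. Of 30 glutamate and GABA receptor and synapse genes 12 were lower and 2 higher (median -0.31), and 9 of 26 were lower on the other chromosomes. GABRA3, a GABA receptor subunit, stood at 0 to 0.859 CPM in C6 and 2.55 to 4.41 CPM in G6 (-2.85 ± 0.36), and DLG4, the scaffold PSD-95, at 11.1 to 23.5 CPM and 24.2 to 33.5 CPM (-0.71 ± 0.12). Of 73 ion channel genes 16 were lower (21.9%, against 17.1% of all genes) and 8 higher (11%, against 16.3%). On the other chromosomes 12 and 8 of 64 were lower and higher, and with summed counts 8 and 5 of the 73. Without G6 untreated replicate 2 the higher count was 5 too. KCNK6 (-1.75 ± 0.32) and SCN3B on chromosome 11 (-1.36 ± 0.25) were lower. SCN9A, a sodium channel gene (1.58 ± 0.22), and CACNA2D1 on chromosome 7, a calcium channel subunit gene (1.52 ± 0.13), were higher.

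A gene was called silent in 1 clone when its counts pooled over the 8 libraries came to under 0.05 CPM while each of the 8 libraries of the other clone held at least 1 CPM. This rule uses the measured levels, so the members are described without a test. It found 4 genes in C6 and 5 in G6. In C6, IQCA1 (chromosome 2, 236324147 to 236507542) held 3 counts against 836 in G6, where it stood at 5.40 to 12.0 CPM, a ratio of 240 (95% counting interval 82.0 to 1170). TMEM45B on chromosome 11 held 1 count against 397, a ratio of 343 (61.1 to 13600). A lincRNA with no symbol (ENSG00000258053, chromosome 12) held 3 against 177, a ratio of 50.9 (17.1 to 249). CENPVL3 on the X chromosome held none against 150, so it was at least 43.1-fold lower when the floor of 3 counts is taken over the 8 libraries. Intervals and floors cover counting error only.

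In G6, PLBD1 (chromosome 12, 14503661 to 14568349), which encodes a phospholipase B-like protein, held 4 counts against 1095 in C6, where it stood at 10.3 to 19.5 CPM. PLEK2, a pleckstrin family gene on chromosome 14, held 3 against 728, a ratio of 281 (95.8 to 1370). TSTD1 on chromosome 1 held 2 against 389, a ratio of 225 (62.0 to 1870). CRABP1, a cellular retinoic acid-binding protein gene on chromosome 15, held 3 against 269, and KRBOX1 on chromosome 3 held 2 against 232, a ratio of 134 (36.8 to 1120). Without the 5 libraries of low detection the counts were 7 genes in C6 and 6 in G6, and PLBD1 no longer met the rule. By the same limits PLBD1, CRABP1 and KRBOX1 were silent in F7, and PLEK2 and TSTD1 lay between. Of the 4 genes silent in C6, IQCA1 and TMEM45B were on in F7 and the other two lay between. In the drug-treated libraries, which the rule did not use, IQCA1, TMEM45B and CENPVL3 met it again, and PLBD1 alone of the 5 in G6. The pooled level of these 5 in drug-treated G6 was at most 0.0857 CPM. Just outside the limit of 0.05 CPM were BEND5 in C6 (0.0756) and, in G6, IAH1 and GALC (0.0544 each) and ZKSCAN7 and DTX3 (0.0870 each). Just inside it were PLBD1 (0.0435) and, in C6, IQCA1 and the lincRNA (0.0378 each).

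The sequence before the transcription start is shown for 4 genes that were on in 1 clone and silent or low in the other. Of these only PLEK2 and CRABP1 met the rule. IAH1 lay just outside it, and CHRDL1 stood at 0.509 to 1.75 CPM in C6, well above the limit. RefSeq starts (GRCh38.p14) were matched for 5 of the 9 silent genes, and the stretch printed runs from 250 to 51 bases before the start, 200 bases, 5′ to 3′ on the strand of the gene, where GENCODE 29 has 0 exonic bases. Capitals mark CG dinucleotides, the sites of DNA methylation, which read the same on both strands. PLEK2 (chr14:67412216-67412415, minus strand) and CRABP1 (chr15:78340103-78340302, plus strand) were silent in G6, IAH1 (chr2:9474301-9474500, plus strand) nearly so, and CHRDL1 (chrX:110795868-110796067, minus strand) was low in C6.
PLEK2: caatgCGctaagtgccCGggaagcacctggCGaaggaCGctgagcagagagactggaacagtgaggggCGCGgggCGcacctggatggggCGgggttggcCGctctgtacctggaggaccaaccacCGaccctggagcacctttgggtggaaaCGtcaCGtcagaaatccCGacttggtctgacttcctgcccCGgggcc
CRABP1: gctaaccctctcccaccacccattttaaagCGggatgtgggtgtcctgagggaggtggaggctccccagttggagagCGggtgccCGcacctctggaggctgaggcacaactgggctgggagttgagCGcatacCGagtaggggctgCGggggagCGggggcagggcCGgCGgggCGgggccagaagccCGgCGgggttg
IAH1: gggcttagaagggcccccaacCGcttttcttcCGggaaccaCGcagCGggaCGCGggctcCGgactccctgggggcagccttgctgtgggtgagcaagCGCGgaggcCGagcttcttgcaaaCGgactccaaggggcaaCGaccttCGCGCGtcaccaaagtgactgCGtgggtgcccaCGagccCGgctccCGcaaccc
CHRDL1: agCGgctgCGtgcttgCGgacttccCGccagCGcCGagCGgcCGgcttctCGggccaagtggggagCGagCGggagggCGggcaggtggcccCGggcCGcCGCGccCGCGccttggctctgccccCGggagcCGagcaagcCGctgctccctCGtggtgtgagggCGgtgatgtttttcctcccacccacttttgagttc
The stretch of PLEK2 held 14 CG, and 58.2% of the 11882 tested genes with a promoter entry held at least as many in the same stretch. CRABP1 held 12 (66.7%), IAH1 19 (36.5%) and CHRDL1 23 (22.3%), beside a median of 15 over the tested genes. The 5 matched silent genes held 1 to 14 (median 10), with CENPVL3 at 1, so IAH1 and CHRDL1 held more than any of them. Of these 5, PLBD1 (10 CG) had all 200 bases of its stretch exonic in GENCODE 29. TSTD1, silent in G6 and with 0 exonic bases in its stretch, held 10 and is not printed. The counts describe these windows, and the methylation of these sites was not measured in this series.

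**Figure D5:**
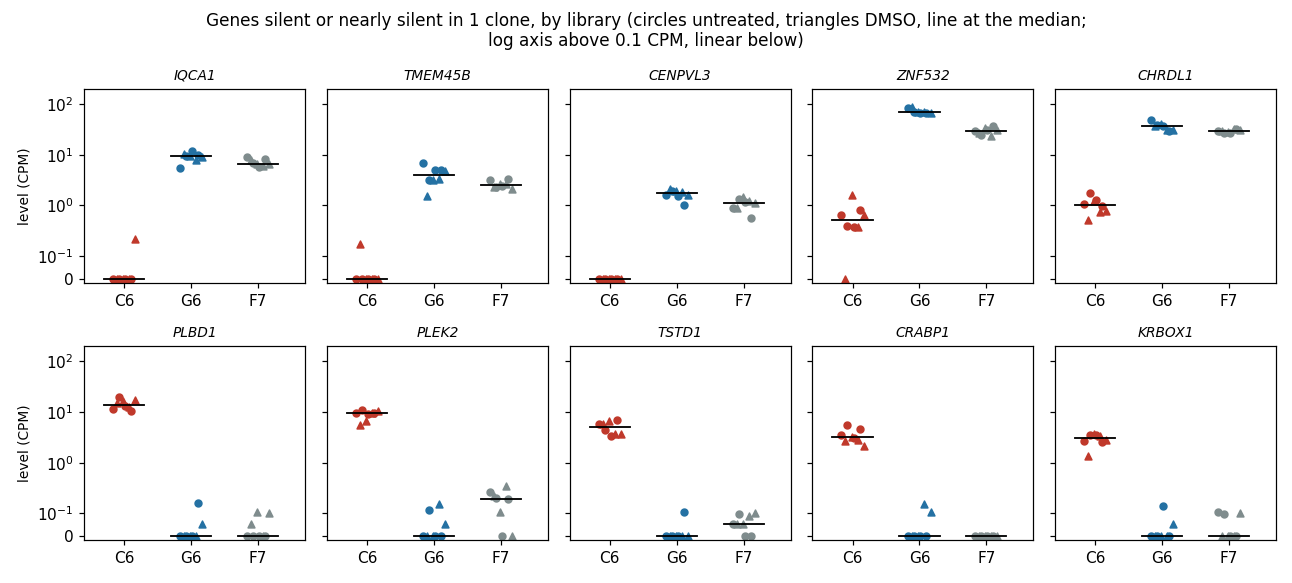
Points are the CPM of 10 genes in each library without drug (C6 red, G6 blue, F7 grey, circles untreated, triangles DMSO), with a line at the median of 8, on an axis that is logarithmic above 0.1 CPM and linear below. The upper row is silent or low in C6, with ZNF532 at most 1.64 CPM there, and the lower row is silent in G6, with PLBD1 at most 0.161 CPM.

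Germline genes, which somatic cells keep silent, were mostly below the filter. Of 83 listed cancer-testis and germline genes 20 passed the filter on low counts, and of these 8 were lower and 2 higher in C6 (median -0.57). On the X chromosome MAGEC1 stood at 0 to 1.07 CPM in C6 and 4.65 to 6.85 CPM in G6 (-3.27 ± 0.30, adjusted p = 4.79e-08, edgeR). MAGEB6 (-2.47 ± 0.28) and MAGEB2 (-2.26 ± 0.33) were lower as well, while MAGEC2 was higher, at 12.9 to 24.1 CPM against 1.96 to 6.59 CPM (1.84 ± 0.21), and TKTL1 too (1.31 ± 0.22). On chromosome 17 TEX14 was lower (-0.86 ± 0.11). Of 38 tested clustered protocadherins, whose promoters are switched on at random in single cells, 8 were higher and 3 lower. PCDHA3 stood at 5.74 to 8.68 CPM in C6 and 0 to 1.94 CPM in G6 (2.56 ± 0.34, adjusted p = 7.87e-06, edgeR), PCDHA10 differed by 0.86 ± 0.13 and PCDHAC2, with overlap, by -0.62 ± 0.17. With summed counts 5 were higher and 1 lower. Their exons overlap in part, so reads can be split between members.

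Of 28 tested imprinted genes 7 were lower and 3 higher. The 4 lower members with the smallest p lie on chromosomes 11 and 20, CDKN1C (-1.02 ± 0.17), the non-coding RNA KCNQ1OT1 (-1.01 ± 0.14), L3MBTL1 (-0.78 ± 0.12) and BLCAP (-0.70 ± 0.11). On the other chromosomes 2 of 18 were lower and 3 higher, among the latter GRB10 on chromosome 7 (0.45 ± 0.07) and RB1 (0.62 ± 0.15). Among the genes of silencing itself, 3 of 23 tested genes of DNA methylation were higher, or 5 without G6 DMSO replicate 4, and 3 lower, 1 of 21 on chromosomes other than 11 and 20. DNMT3B, a de novo DNA methyltransferase on chromosome 20, stood at 18.9 to 25.4 CPM in C6 and 37.1 to 48.7 CPM in G6 (-1.09 ± 0.09, adjusted p = 1.24e-08, edgeR), and F7 had a median of 47 CPM. AHCY, also on chromosome 20, was lower (-0.73 ± 0.08), and UHRF1, which guides maintenance methylation, was higher (0.48 ± 0.11). Of 56 polycomb and histone methylation genes 13 were higher and 7 lower. The retinoblastoma-binding protein gene RBBP7 on the X chromosome stood at 454 to 534 CPM in C6 and 250 to 287 CPM in G6 (0.88 ± 0.06), and the polycomb subunit gene EED on chromosome 11 (-0.48 ± 0.07) and the demethylase gene KDM6B (-0.94 ± 0.15) were lower. With summed counts 6 of the 56 were higher and 3 lower, and 7 or 8 were higher without C6 untreated replicate 1 (8), G6 untreated replicate 2 (7) or G6 untreated replicate 3 (8). Of 34 histone deacetylase and NuRD genes 7 were higher and 7 lower (7 and 4 of 30 outside chromosomes 11 and 20), with the corepressor gene RCOR2 on chromosome 11 the most apart (-1.36 ± 0.15).

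These list counts stand beside other measures that differed between the clones. The mitochondrial share did not overlap, 3 C6 and 2 G6 libraries had low detection, and chromosomes 11 and 20 leaned down as a whole in C6. Chromosomes 7 and 21 leaned up in C6. The part of mitochondrial share in the list counts was not tested. Without the 5 libraries of low detection, 17 of 30 immediate early genes, 15 of 29 glycolysis and hypoxia genes, 13 of 28 ATF4 genes, 11 of 21 NF-kB targets and 9 of 20 germline genes were lower. There 24 of 56 matrix genes, 14 of 33 HOX genes, 11 of 30 kidney development factors and 12 of 13 mitochondrial mRNAs were higher.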

How the data were processed

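PolyA RNA was sequenced from 60 libraries, of which 16 were compared here. The authors deposited raw counts per Ensembl gene, made from reads aligned to hg38; STAR 2.7.8, FastQC 0.11.9 and Picard 2.26.6 are listed per the submitters' processing notes, and the counting tool is not given in the sources used here. Counts were tested with edgeR 4.0.16 (TMM scaling, filterByExpr, quasi-likelihood F test, vehicle as a factor, R 4.3.3), with Benjamini-Hochberg adjustment over 16493 genes, and DESeq2 1.42.0 was an alternative. The procedure was checked on simulated data with known changes. Its libraries were drawn independently, so the check does not cover libraries that correlate. CPM values are counts scaled to the TMM-adjusted library total. Library depth sets the counting error, and replicates differed by 2.82 to 48.9 times its variance over 24 pairs. The p-values set each clone difference against the spread between these libraries.

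Named genes were TDP1, TOP1, the 15 highest and 15 lowest differences with a mean of at least 2 on the log2 CPM scale, up to 4 called members per list and direction, silent genes, up to 4 genes per outlying chromosome or window, and exceptions marked as such; some genes the rule names are not reported here. Members and gene lists were chosen with earlier results of these data known. Gene positions are from GENCODE 29 on hg38.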

Additional observations from a re-analysis of the deposited data

Results flagged for a closer look

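In 41 of 450 sets of 8 libraries of 1 clone, 1 library stood far from the other 7 at a named gene, by Dixon's test, on which chance marks about 1 in 20 sets. Of the 41, 29 fell on the 5 libraries of low detection. The levels below are followed by the range of the other 7 libraries, and their causes were not tested.

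C6 DMSO replicate 1 was high for LGALS8 at 27.48 CPM against 15.01 to 20.08, TMEM45B at 0.1697 CPM against 0 in each other library and KIT at 11.03 CPM against 5.046 to 7.626. It was also high for PCDHA10 at 30.88 CPM against 18.57 to 22.17 and HESX1 at 4.072 CPM against 0.5541 to 1.844. C6 DMSO replicate 2 was high for DPP4 at 4.302 CPM against 1.57 to 2.566 and BEND5 at 0.8195 CPM against 0 to 0.1946. C6 DMSO replicate 4 was high for IQCA1 at 0.2143 CPM against 0 in each other library and SLC18A2 at 0.5 CPM against 0 to 0.1697. C6 untreated replicate 1 was high for HOXA4 at 6.767 CPM against 3.14 to 4.712. C6 untreated replicate 2 was high for WNT5A at 25.5 CPM against 14.75 to 18.75, KL at 3.309 CPM against 0.4618 to 1.639 and IAH1 at 14.6 CPM against 8.143 to 10.31. C6 untreated replicate 3 was high for ENSG00000258053 at 0.1509 CPM against 0 to 0.0623. C6 untreated replicate 4 was high for TRIB3 at 38.81 CPM against 24.7 to 31.02. G6 DMSO replicate 1 was high for ALDH1A2 at 20.92 CPM against 11.4 to 15.75, MT-CO3 at 4248 CPM against 3214 to 3615 and HMGCS1 at 210.9 CPM against 118.5 to 161.6. It was also high for FOXC1 at 75.44 CPM against 54.14 to 63.64 and POU3F2 at 5.358 CPM against 0.905 to 2.893. G6 DMSO replicate 2 was high for LTBP1 at 43.96 CPM against 34.14 to 37.91 and GALC at 0.2586 CPM against 0 to 0.1075. G6 DMSO replicate 4 was high for MYD88 at 1.075 CPM against 0 to 0.3474. G6 untreated replicate 1 was high for ZNF257 at 6.108 CPM against 0.9657 to 3.127, TNFAIP3 at 41.43 CPM against 25.09 to 31.99 and SEMA3D at 4.386 CPM against 0.4568 to 1.939. It was also high for HOXA5 at 14.57 CPM against 8.25 to 10.81 and NRCAM at 53.18 CPM against 24.68 to 37.68. G6 untreated replicate 3 was high for KRBOX1 at 0.1379 CPM against 0 to 0.05376. G6 untreated replicate 4 was high for PLBD1 at 0.161 CPM against 0 to 0.05376 and TSTD1 at 0.1073 CPM against 0 in each other library.

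C6 DMSO replicate 1 was low for LTBP1 at 57.51 CPM against 78.35 to 91.94 and EI24 at 112 CPM against 128.7 to 133.5. C6 DMSO replicate 2 was low for PLK1 at 101.2 CPM against 137.4 to 161.9, COL3A1 at 5.122 CPM against 7.857 to 10.22 and NRG2 at 0 CPM against 0.8483 to 1.362. It was also low for GRB10 at 45.48 CPM against 58.7 to 68.16. G6 DMSO replicate 1 was low for COL3A1 at 0 CPM against 1.801 to 2.796, PTCH1 at 38.36 CPM against 51.33 to 57.57 and MEIS1 at 7.825 CPM against 9.633 to 10.89. G6 DMSO replicate 4 was low for NOP56 at 597.1 CPM against 627.6 to 642.2.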

How the results depend on the processing

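With untreated libraries only, 1212 genes were higher and 1440 lower in C6, and with DMSO libraries only 1140 and 1230, with 458 lower at least 2-fold. With untreated and DMSO counts summed 1768 were higher. Leaving out 1 library gave 2340 to 2832 genes higher and 2573 to 2838 lower, 304 to 325 and 716 to 844 at least 2-fold, and in the drug-treated libraries 3438 to 4464 and 3350 to 4322. Without drug more genes were lower than higher (2815 against 2688), except with the replicate block (3372 higher and 3199 lower), with the library name prefix as a factor (2918 and 2784), and without G6 DMSO replicate 4 or G6 untreated replicate 1. Without the 5 libraries of low detection the counts were 3176 and 3219. Deviations of same-numbered C6 and G6 libraries correlated at 0.14, 0.08, 0.08 and 0.80 (untreated) and 0.22, 0.24, -0.06 and 0.01 (DMSO) over 10897 genes. Of 8 C6 libraries 3 correlated best with their own number, so the numbers were not taken as pairs between clones. Within a clone, untreated and DMSO libraries of the same number correlated at 0.07, 0.52, 0.65 and 0.05 (C6) and 0.56, 0.04, 0.02 and 0.81 (G6). The main fit held no term for such pairs, so its SE and p-values can be too small if they share a culture. Silent genes depended on the limits: under 0.02 CPM 2 in C6 and 0 in G6, under 0.1 CPM 9 in G6, with 0.5 CPM in the other clone 7 and 8, with 2 CPM 1 in C6, and without the libraries of low detection 7 in C6. Leaving out 1 library gave 4 to 6 in C6 and 4 to 7 in G6. With genes of a mean log2 CPM of at least 4 only, the chromosome medians were 0.01 (chromosome 1), 0.41 (7), -0.01 (9), 0.05 (12), 0.43 (21) and 0.60 (mitochondrial). Of 5847 values of 225 named genes over the alternatives, 5739 kept direction and call, 5 gained the call, 3 changed sign and the rest lost the call. The changes of sign were GNAS at 0.01 with DMSO libraries only and at -0.04 to 0 with 1 library left out (0 without C6 DMSO replicate 4), and SOWAHA at 0.24 with DMSO libraries only. RLE scaling moved the median of all genes by -0.002.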
